A study of Mus musculus with 6 samples.

Results

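RNA levels of 8 genes of the B cell lineage were examined in bulk RNA-seq libraries of mouse bone marrow-derived macrophages (BMDMs), macrophages grown from bone marrow with a source of colony-stimulating factor. The members were the listed genes *Igkc*, *Ighm*, *Jchain*, *Cd79a*, *Cd79b*, *Ebf1*, *Pax5* and *Ly6d*, 8 of the 36137 genes matched to the files, of which 18506 had enough counts to be tested. They were chosen with the comparison of *Drp1* KO and WT already known, so their own values are given as a description, and nothing is concluded from a test of them. The libraries were 3 of WT BMDMs, from LysM-Cre+/- *Drp1*+/+ mice, and 3 of *Drp1* KO BMDMs, from LysM-Cre+/- *Drp1* fl/fl mice. All 6 therefore carried Cre, driven by the lysozyme M promoter, which is active in myeloid cells. The mice were 8 to 12 weeks old and of both sexes, and marrow of 2 mice per genotype was pooled before culture. Every culture was kept until day 7 in medium with 10% FBS and 10% L929-cell supernatant, as the labels give it, and then held for 8 hours in serum-free medium at 2.1% oxygen (hypoxia serum starvation, HSS). The study's methods give a slightly lower oxygen level and a larger share of L929 medium than the labels do. The labels number the libraries as biological replicates 1 to 3, and whether each came from a separate pool of mice is not given, so the spread between libraries may be in part technical.

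B cells develop in the bone marrow, where the transcription factors EBF1 and PAX5 set their identity and the V, D and J segments of the immunoglobulin loci are joined. A mature B cell carries membrane IgM or IgD next to the signalling pair CD79A and CD79B, and a plasma cell, its antibody-secreting descendant, uses the secreted form and, for IgM and IgA, the joining chain encoded by *Jchain*. Macrophages are not known to rearrange these loci, although some B-lineage genes, *Cd79b* and *Cd72* among them, are also read in other blood cells. In bulk RNA a larger number of cells of a type and more RNA per cell cannot be told apart.

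Parts of the messenger RNAs that the results turn on are shown first, read from the GRCm39 genome on the strand of the gene, with a stop codon in capitals where the stretch holds one. *Ighm* (chr12:113382178-113386350, minus strand), the constant region of IgM heavy chains, is spliced in alternative ways, and the first 2 stretches are what tells its forms apart. The secreted end lies at chr12:113384487-113384548 and is coding only in Ighm-201. The membrane exon lies at chr12:113382573-113382688, is held only by Ighm-202 and encodes most of the stretch that anchors the receptor in the membrane. The third stretch, at chr6:70703622-70703741, is the coding end of *Igkc* (chr6:70703419-70703950, plus strand), the constant region that every kappa light chain shares whichever variable segment it uses.
Ighm secreted end: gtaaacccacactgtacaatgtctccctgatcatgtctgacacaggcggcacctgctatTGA
Ighm membrane exon: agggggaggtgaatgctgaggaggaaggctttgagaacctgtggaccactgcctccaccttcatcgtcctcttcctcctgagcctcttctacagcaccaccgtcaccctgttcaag
Igkc coding end: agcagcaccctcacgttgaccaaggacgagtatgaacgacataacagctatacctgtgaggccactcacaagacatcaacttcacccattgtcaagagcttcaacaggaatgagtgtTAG

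Depth was 24269850 to 28650715 estimated reads in the WT libraries and 23389488 to 32231206 in the *Drp1* KO libraries. Levels are given as counts per 1000000 reads (CPM), scaled between libraries by the TMM method, and a gene at or under 3 counts, 0.0916 to 0.136 CPM in these libraries, was taken to be at the floor of detection, a limit that covers counting error only. *Dnm1l*, which encodes DRP1, was measured at 72.7, 69.9 and 75.1 CPM in WT and at 58.7, 60.7 and 66.3 CPM in *Drp1* KO libraries, a log2 fold change of -0.23 ± 0.0921 (SE; edgeR quasi-likelihood test, Benjamini-Hochberg adjusted p = 0.248). These counts run over the whole gene and do not check the floxed exons. Macrophage genes were abundant in both groups: *Adgre1*, which encodes F4/80, stood at 1340 ± 213 CPM in WT against 1390 ± 73.6 CPM in *Drp1* KO libraries (mean ± SD, n = 3).

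*Igkc* (ENSMUSG00000076609) showed the widest separation among the members. It had 44, 54 and 45 counts in the WT libraries and 317, 279 and 526 counts in the *Drp1* KO libraries. In CPM these were 1.9, 2.02 and 1.53 in WT and 14.4, 8.52 and 16.1 in *Drp1* KO. The lowest *Drp1* KO library stood well above the highest WT library, and the WT libraries lay close together (1.82 ± 0.255 against 13 ± 3.99 CPM). The log2 fold change was 2.84 ± 0.257 (SE), or 7.16-fold higher in *Drp1* KO. None of the 31-base stretches of the *Igkc* transcript occurred in transcripts of another gene in the quantified set, while 2 annotated long noncoding RNAs, *Gm30211* and *Gm68839*, overlap the gene and were not quantified apart from it.

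*Ighm* (ENSMUSG00000076617) was the most abundant member by CPM but did not separate the groups. Its counts were 303, 760 and 742 in WT and 430, 627 and 1622 in *Drp1* KO libraries. The corresponding levels were 13.1, 28.5 and 25.3 CPM in WT against 19.5, 19.2 and 49.7 CPM in *Drp1* KO. *Drp1* KO library 3 was the highest and WT library 1 the lowest, and of the other 4 libraries both WT libraries lay above both *Drp1* KO libraries. The log2 fold change was 0.40 ± 0.375 (SE), and without *Drp1* KO library 3 it was -0.20.

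*Jchain* (ENSMUSG00000067149, chr5:88667668-88675750, minus strand) encodes the small chain that links IgM or IgA units in secreted antibody. It had 9, 30 and 20 counts in WT and 73, 51 and 116 counts in *Drp1* KO libraries. These were 0.388, 1.12 and 0.681 CPM in WT against 3.31, 1.56 and 3.56 CPM in *Drp1* KO. The groups did not overlap, although the highest WT and the lowest *Drp1* KO libraries, both numbered 2, were near each other. The log2 fold change was 1.92 ± 0.425 (SE), or 3.78-fold higher in *Drp1* KO, on few reads.

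The receptor pair was unequal. *Cd79b* (ENSMUSG00000040592, chr11:106202167-106205588, minus strand) had 5.39, 3.67 and 3.13 CPM in WT against 5.36, 6.6 and 5.89 CPM in *Drp1* KO libraries. WT library 1 reached the level of *Drp1* KO library 1, so the groups overlapped by that one pair, and the log2 fold change was 0.56 ± 0.218 (SE). *Cd79a* (ENSMUSG00000003379, chr7:24596740-24601622, plus strand), whose product binds CD79B in the receptor, had 1, 3 and 1 counts in WT and 2, 3 and 4 counts in *Drp1* KO libraries. At 5 reads against 9 the ratio of *Drp1* KO to WT was 1.63, with an exact 95% counting interval of 0.491 to 6.2, so no difference could be detected at this depth, and 11.7% of its 31-base stretches also occur in *Gm32220*. All 6 libraries thus held many more *Cd79b* than *Cd79a* reads, among them 98 against 3 in WT library 2 and 192 against 4 in *Drp1* KO library 3.

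The transcription factors *Ebf1* and *Pax5* were measured at low levels in both groups. *Ebf1* (ENSMUSG00000057098, chr11:44508138-44898918, plus strand) had 0.561, 0.75 and 0.818 CPM in WT against 0.454, 0.855 and 0.736 CPM in *Drp1* KO libraries. The groups were interleaved, with a log2 fold change of -0.04 ± 0.381 (SE) and a ratio of summed counts of 0.986 (exact 95% counting interval 0.677 to 1.44). *Pax5* (ENSMUSG00000014030, chr4:44524757-44710487, minus strand), the factor that holds cells in the B lineage, had 1, 3 and 0 counts in WT and 2, 1 and 0 in *Drp1* KO libraries, at the floor throughout. *Ly6d* (ENSMUSG00000034634, chr15:74633902-74635597, minus strand), a surface protein of early B-cell precursors, had 0 counts in all 6 libraries, and no fold is given for either gene.

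Of the 8 members, 7 had a count in some library and 6 passed the filter of 10 counts in total. By the rule of an adjusted p under 0.05 in edgeR's quasi-likelihood test, 2 members (*Igkc* and *Jchain*) were counted as higher in *Drp1* KO, where 2.29% of all tested genes were called in that direction, 1.06% in the other and 3.36% in all. By the study's thresholds, an absolute log2 fold change above 0.32 together with p under 0.05 before adjustment, applied here to edgeR's p and not to the DESeq2 p the study used, the count was 3, with *Cd79b* added, against 7.19% of all tested genes. The groups did not overlap for 2 members, *Igkc* and *Jchain*, with *Drp1* KO higher, and for 11.7% of tested genes in that direction. The members were chosen on this contrast, so nothing is read from these counts. The median log2 fold change of all tested genes was 0.0. On the TPM scale, which divides by transcript length and allows a comparison between genes, *Ighm* was the highest member in WT at 21.5 ± 8.08 TPM, followed by *Igkc* at 8.9 ± 1.06 TPM and *Cd79b* at 4.45 ± 1.16 TPM. In *Drp1* KO libraries *Igkc* came first at 55.8 ± 17.1 TPM, then *Ighm* at 27.2 ± 17.3 TPM, *Cd79b* at 6.4 ± 0.667 TPM and *Jchain* at 3.59 ± 1.51 TPM. In *Drp1* KO the SD ranges of the neighbours *Igkc* and *Ighm* overlapped.

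**Figure D1:**
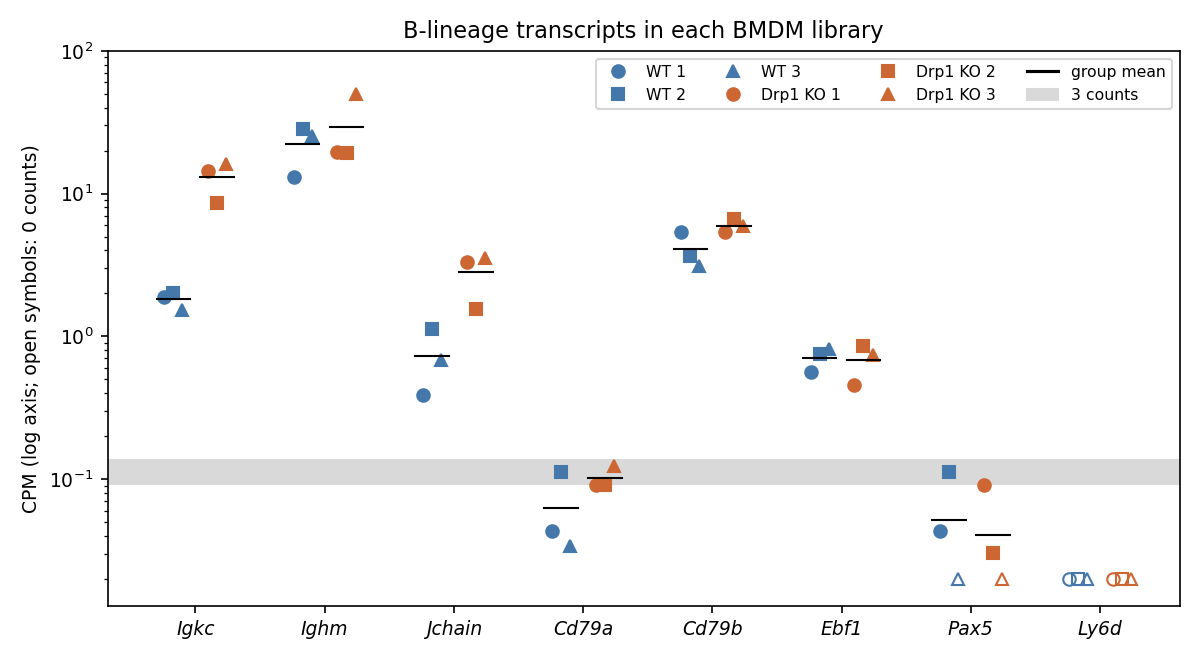
CPM (log axis) of the 8 B-lineage transcripts in each WT (blue) and *Drp1* KO (orange) BMDM library, with symbol shapes for the library number, black bars for group means and a grey band at 3 counts. *Igkc* and *Jchain* are the members whose groups do not overlap, while *Cd79a*, *Pax5* and *Ly6d* lie near or under the 3-count band or at 0 (open symbols).

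Within *Ighm*, the secreted and membrane forms both overlapped between the groups. Ighm-201, with the secreted end, took 11.0, 22.0 and 21.1 CPM in WT against 15.7, 17.9 and 47.8 CPM in *Drp1* KO libraries. Ighm-202, with the membrane exon, took 4.25 ± 2.22 CPM in the WT group and 2.34 ± 1.32 CPM in the *Drp1* KO group. The membrane form was 15.6%, 22.8% and 16.7% of *Ighm* counts in WT libraries 1, 2 and 3, and 19.5%, 6.51% and 3.97% in *Drp1* KO libraries 1, 2 and 3. *Drp1* KO libraries 2 and 3 had the lowest shares, with 95% Wilson intervals of 4.86% to 8.75% and 3.1% to 5.01%, below every WT interval. *Drp1* KO library 1, with an interval of 16.1% to 23.5%, lay among the WT libraries, so the group means of 18.4% ± 3.88 and 9.99% ± 8.33 (SD, n = 3) overlapped in their spread. These splits are kallisto's estimates from reads that the forms mostly share, and the intervals cover counting error only.

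The forms of *Jchain* and *Cd79b* also differed in their part of the gene's level. Jchain-201, the coding form, had levels of 0.0, 0.592 and 0.378 CPM in WT against 3.21, 1.09 and 2.99 CPM in *Drp1* KO libraries. Jchain-202, which keeps an intron, stood at 0.406 ± 0.114 CPM in WT against 0.378 ± 0.24 CPM in *Drp1* KO libraries. The higher level of the gene in *Drp1* KO thus lay in the coding form. Cd79b-202 averaged 1.62 ± 0.515 CPM over the WT libraries and 3.46 ± 0.386 CPM over the *Drp1* KO libraries, whereas Cd79b-201 averaged 2.45 ± 0.689 and 2.49 ± 1.0 CPM. All these splits are again estimates.

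The gamma, alpha and epsilon constant regions of the heavy chain mark B cells and plasma cells that have switched class. Of the 10 constant regions listed beside the members, which hold these, *Ighd* and the lambda light chain, 6 passed the count filter and none of these passed by adjusted p (edgeR). At an unadjusted p under 0.05, which 16.4% of all tested genes met, the count was 2, and with DESeq2 it was 1. *Igha*, the IgA constant region, and *Ighg2b*, that of IgG2b, met the study's criteria. *Igha* had 4, 3 and 1 counts in WT and 123, 11 and 5 in *Drp1* KO libraries, so *Drp1* KO library 1 alone held most of its reads (log2 fold change 4.19 ± 1.34, edgeR adjusted p = 0.138, with a log2 fold change of 1.21 without that library). *Ighg2b* had 15, 23 and 19 counts in WT and 15, 192 and 71 in *Drp1* KO libraries, with the most in *Drp1* KO library 2 (log2 fold change 2.03 ± 0.621, edgeR adjusted p = 0.121). *Igha* entered the test only through the *Drp1* KO libraries, where it is high, so nothing is read from its sign or its p. With the replicate number as a block, *Ighg2b* passed in edgeR (adjusted p = 0.0127), and it also passed without *Drp1* KO library 1 (edgeR adjusted p = 0.0108). The block pairs libraries of the same number, a pairing read from these data and not given by the labels. Under it 2212 of the 18506 tested genes passed, against 621 without it. Calls under the block, here and below, are therefore given only to show how results depend on the processing. Without *Drp1* KO library 2, the log2 fold change of *Ighg2b* was 1.02 (edgeR adjusted p = 0.468).

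The share of each class is given per library, with intervals that cover counting error only. *Ighm* was 88.6%, 91.1% and 94.8% of all heavy chain constant counts in WT, and 70.8%, 67.5% and 93.0% in *Drp1* KO libraries. In *Drp1* KO library 1, *Igha* made up 20.3% of these counts (95% Wilson interval 17.3% to 23.6%), and in library 2 *Ighg2b* made up 20.7% (18.2% to 23.4%). No WT library had *Igha* above 1.17% or *Ighg2b* above 4.39%. The IgG genes share sequence, with 9.29% of the 31-base stretches of *Ighg2b* and 15% of those of *Ighg2c* found in other IgG genes, so their split is uncertain. *Igkc* was 12.7%, 6.63% and 5.72% of *Igkc* plus *Ighm* counts in WT and 42.4%, 30.8% and 24.5% in *Drp1* KO libraries, with no overlap. Both genes are members chosen with this contrast known, and *Igkc* separates the groups by itself, so nothing is read from this share.

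**Figure D2:**
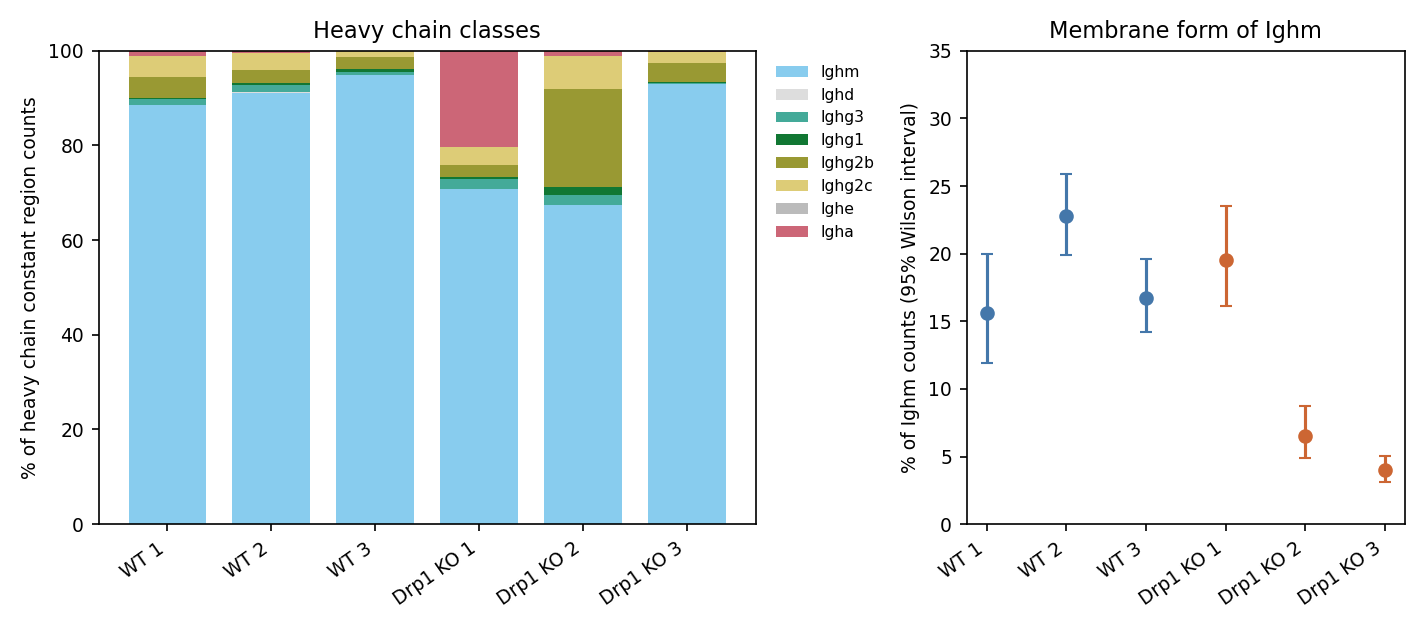
Left, share (%) of each heavy chain constant region among all heavy chain constant counts in each library, as stacked bars. Right, share (%) of *Ighm* counts on the membrane form, with 95% Wilson intervals, in WT (blue) and *Drp1* KO (orange) libraries. *Drp1* KO libraries 1 and 2 hold large *Igha* and *Ighg2b* shares (20.3% and 20.7%), and the membrane share is lowest in *Drp1* KO libraries 2 and 3.

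Rearranged variable segments lie on the same mRNAs as the constant regions, so they are a further reading of these transcripts and not separate evidence. The annotation holds 247 V, D and J segments of the heavy, kappa and lambda loci, of which 124 had a count and 197 never exceeded 3 counts in a library. Together they had 71, 77 and 56 counts in WT and 236, 258 and 387 counts in *Drp1* KO libraries. This was 3.06, 2.89 and 1.91 CPM in WT against 10.7, 7.88 and 11.9 CPM in *Drp1* KO, so every *Drp1* KO library stood above every WT library (2.62 ± 0.621 against 10.2 ± 2.06 CPM, a ratio of 3.88).

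Both the heavy and the kappa locus contributed. Heavy chain V segments had 39, 46 and 28 counts in WT and 133, 133 and 225 in *Drp1* KO libraries, a ratio of mean CPM of 3.9. Kappa V segments had 26, 28 and 27 counts in WT and 98, 120 and 162 in *Drp1* KO libraries, a ratio of 4.24. Lambda V segments had 7 counts in each group. T cell receptor V segments, listed for comparison, stood at 5.11 ± 1.22 CPM in WT against 6.19 ± 2.63 CPM in *Drp1* KO libraries, with the groups overlapping. The T cell receptor constant regions *Trac*, *Trbc1* and *Trbc2* had 3, 5 and 1 counts in WT and 0, 0 and 1 in *Drp1* KO libraries together. These V counts are thus not a measure of T cells, and their source was not tested.

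Variable and constant reads did not stand in one ratio. For each 100 *Igkc* counts there were 59.1, 51.9 and 60.0 kappa V counts in WT and 30.9, 43.0 and 30.8 in *Drp1* KO libraries, lower in every *Drp1* KO library. For each 100 heavy chain constant counts there were 11.4, 5.52 and 3.58 heavy chain V counts in WT and 21.9, 14.3 and 12.9 in *Drp1* KO libraries, higher in every *Drp1* KO library. In WT libraries 2 and 3, whose *Ighm* levels were the highest of the group, the heavy chain V counts per constant count were the lowest. A germline reference cannot place every read of a rearranged and mutated segment, so segment reads may be missing from both ratios. The denominators hold the members *Igkc* and *Ighm*, which were chosen with this contrast known. A high *Igkc* in *Drp1* KO by itself lowers the kappa ratio there, so nothing is read from either separation.

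No single segment carried the difference. The segment with the most counts over all libraries was *Ighv11-2*, with 4, 11 and 12 counts in WT and 12, 23 and 3 in *Drp1* KO libraries, and then *Ighv1-80*, *Ighv1-81* and *Igkv12-46*, level at 56 counts each. *Ighv1-81* had 17, 3 and 0 counts in WT and 0, 7 and 29 in *Drp1* KO libraries, and *Igkv12-46* had 2, 0 and 0 in WT and 2, 11 and 41 in *Drp1* KO libraries. The leading heavy chain segment was *Ighv1-81* in WT library 1 and *Drp1* KO library 3, *Ighv11-2* in WT libraries 2 and 3 and *Drp1* KO library 2, and *Ighv1-80* in *Drp1* KO library 1. The leading kappa segment differed in all 6 libraries. It was *Igkv12-46* in *Drp1* KO library 3, with 41 of 162 kappa V counts, or 25.3% (95% Wilson interval 19.2% to 32.5%).

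*Ighv1-80* (chr12:115875964-115876396, minus strand) had 1, 0 and 0 counts in WT and 26, 9 and 20 counts in *Drp1* KO libraries, a ratio of summed counts of 49.9 with an exact 95% counting interval of 8.59 to 2010. Of its 31-base stretches, 47.0% occur in 47 other genes, so its reads may in part belong to other segments. It was the 1 segment that edgeR called among the 36 that passed the count filter, but 28 of the 36 were at or under 3 counts in every library of a group. Segments such as *Ighv1-80* passed the filter only through the *Drp1* KO libraries, where they are high, so nothing is read from this call or its direction.

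**Figure D3:**
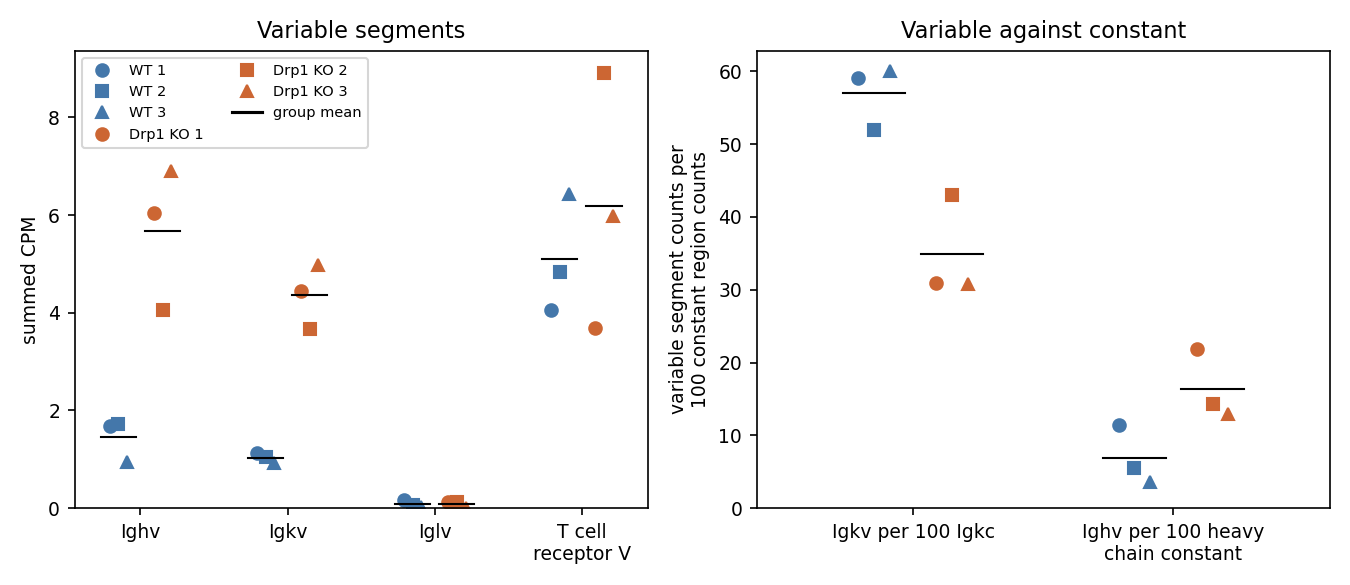
Left, summed CPM of V segments by locus in each WT (blue) and *Drp1* KO (orange) library, with black bars for group means. Right, V segment counts per 100 constant region counts. Heavy and kappa V segments are higher in every *Drp1* KO library, T cell receptor V segments overlap, and the kappa V to *Igkc* ratio is lower in every *Drp1* KO library. *Igkc* was chosen with this contrast known, so nothing is read from that ratio.

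Genes of early B-cell development were close to absent. Of 7 genes of the surrogate light chain and of V(D)J recombination, only *Rag2*, part of the recombinase, passed the count filter, and it did not pass the test, nor did it with DESeq2 or at an unadjusted p under 0.05 (0.519 ± 0.149 against 0.667 ± 0.361 CPM, log2 fold change 0.38 ± 0.48, edgeR adjusted p = 0.791). *Vpreb1a* was at 0.0144 ± 0.0249 and 0.0458 ± 0.046 CPM in WT and *Drp1* KO libraries. *Dntt*, the enzyme that adds bases at the joints, was at 0.0 CPM in every WT library and had a mean of 0.0204 CPM in *Drp1* KO.

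Among the 13 surface receptors of B cells reported here, all were tested, 3 rose and none fell, and the median log2 fold change was 0.02. Of all tested genes, 2.29% were called higher and 1.06% lower. *Fcrl5* (chr3:87343080-87407985), an Fc receptor-like protein of B cells and plasma cells, had 3.06, 1.5 and 1.33 CPM in WT against 16.3, 14.9 and 14.7 CPM in *Drp1* KO libraries (log2 fold change 2.98 ± 0.267, edgeR adjusted p = 0.000389). Its *Drp1* KO libraries lay close together, far above all WT libraries. *Cd72*, an inhibitory coreceptor that myeloid cells also express, rose from 42.0 ± 2.91 to 77.4 ± 9.19 CPM (log2 fold change 0.88 ± 0.112, edgeR adjusted p = 0.00236). *Il7r*, the interleukin 7 receptor chain, rose from 311 ± 6.07 to 488 ± 58.3 CPM (log2 fold change 0.65 ± 0.105, edgeR adjusted p = 0.00883), a call lost without WT library 2 or WT library 3 (highest edgeR adjusted p 0.0862), with log2 fold changes of 0.62 and 0.64 there. *Cd22*, the next most abundant receptor, stood at 36.8 ± 4.91 and 32.0 ± 3.83 CPM, and *Ms4a1*, which encodes CD20 and is named after its values were seen, at 0.332 ± 0.143 and 0.183 ± 0.0616 CPM. The cells that carry the reads of the 3 called genes were not told apart, so their rise is not a measure of B cell number.

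Of the 17 genes of B cell receptor signalling reported here, 16 were tested and none of these passed by adjusted p (edgeR), while 3 had an unadjusted p under 0.05 (16.4% of all tested genes did) and 1 passed with DESeq2. The median log2 fold change was 0.02. *Pik3ap1*, an adaptor for PI3 kinase, met the study's criteria at 705 ± 70.7 and 910 ± 46.3 CPM (log2 fold change 0.37 ± 0.105, edgeR adjusted p = 0.0968) and passed under the replicate block (edgeR adjusted p = 0.0123) or without WT library 1 (edgeR adjusted p = 0.047). *Syk*, the kinase below the receptor, stood at 683 ± 57.8 and 645 ± 81.7 CPM and *Prkcb* at 311 ± 46.0 and 307 ± 56.1 CPM. *Blk*, a kinase found mainly in B cells, had 0 counts in all 6 libraries.

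Of 14 further transcription factors of the lineage, 13 were tested and none passed by adjusted p (edgeR). At an unadjusted p under 0.05 the count was 3, against 16.4% of all tested genes, and with DESeq2 it was 1. The median log2 fold change was 0.34, and 11 were positive. *Ikzf1*, *Bach2* and *Bcl11a* met the study's criteria. *Bcl11a*, needed for early B-cell development, stood at 4.42 ± 0.813 CPM in WT against 7.47 ± 1.32 CPM in *Drp1* KO, and *Ikzf1*, which encodes Ikaros, at 51.2 ± 7.72 and 64.7 ± 2.99 CPM. Under the replicate block both passed in edgeR (adjusted p = 0.00992 and 0.0226), and *Ikzf1* also passed without WT library 1 (edgeR adjusted p = 0.0345). *Irf8*, *Spi1* and *Pou2f2*, the most abundant, differed by less than their spread, with log2 fold changes of 0.02 ± 0.201, 0.07 ± 0.12 and -0.10 ± 0.155. *Pou2af1*, the octamer coactivator of immunoglobulin genes, had at most 3 counts in a library.

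Plasma cell genes gave no common direction. Of 8 genes, 7 were tested, none passed by adjusted p (edgeR) or with DESeq2, and 1 had an unadjusted p under 0.05. The median log2 fold change was -0.32, or -0.24 with the 1 gene that was at the floor throughout a group set to its bound. *Xbp1*, which drives the secretory program, stood at 114 ± 14.8 and 118 ± 19.6 CPM and *Prdm1* at 52.6 ± 4.18 and 47.5 ± 3.22 CPM. *Sdc1*, which encodes CD138, met the study's criteria with 40.5, 39.6 and 34.3 CPM in WT against 96.4, 32.2 and 61.2 CPM in *Drp1* KO libraries, where library 2 lay below WT, and it passed without that library (edgeR adjusted p = 0.0305). *Mzb1*, a chaperone of B cells and plasma cells, had 1 count in WT and 7 in *Drp1* KO libraries together, a ratio of 6.35 with an exact 95% counting interval of 0.815 to 286. *Tnfrsf17*, the survival receptor of plasma cells, which is named after its values were seen, had 3, 3 and 4 counts in WT and 0, 2 and 0 in *Drp1* KO libraries. *Xbp1*, *Prdm1* and *Sdc1* stood above *Igkc* in every library, and *Mzb1* and *Tnfrsf17* rest on few counts. The list thus gives no reading of plasma cells in either direction.

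**Figure D4:**
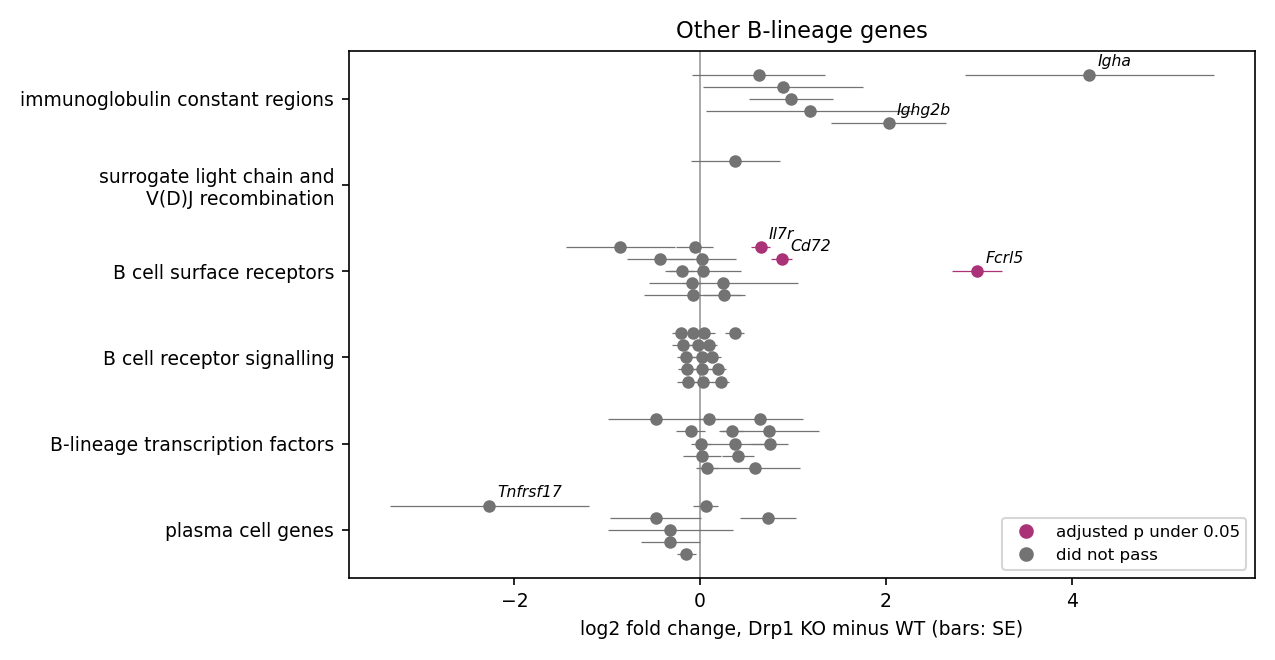
Log2 fold change of *Drp1* KO over WT (bars, SE) for each tested gene reported here of the other B-lineage lists, with genes that passed an adjusted p under 0.05 in edgeR in purple. *Fcrl5*, *Cd72* and *Il7r* passed, and *Igha*, with a bar of 1.34, has a wide error.

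Markers of other cells that marrow cultures can hold were set beside the members, and their part in the result was not tested. Of 53 tested markers, 1 rose and 2 fell, all of the macrophage list, where *Fcgr1* rose and *Csf1r* and *Mertk* fell (log2 fold changes 1.34, -0.52 and -0.52). Of all tested genes 3.36% were called, so nothing is read from the number of markers called. Under the replicate block 7 markers rose and 3 fell, where 2212 of all 18506 tested genes passed. *Csf1r* passed under 7 and *Mertk* under 9 of the 13 alternatives. Leaving out library 2 or 3 of WT left 1 marker called, and leaving out library 1 of *Drp1* KO gave 5. Summed neutrophil markers were at 52.7 to 66.9 CPM in WT and 65.5 to 95.1 CPM in *Drp1* KO libraries. Of these markers 8 of 11 were tested (median log2 fold change 1.16), and *Ly6g* had 0 counts throughout. None passed by adjusted p (edgeR), against 4 at an unadjusted p under 0.05 and 2 with DESeq2. The largest part of the sum was *Csf3r*, at 45.3 ± 1.66 CPM in WT libraries and 43.9 ± 2.0 CPM in *Drp1* KO libraries. In *Drp1* KO libraries 2 and 3 it was 45.7 and 41.7 CPM of sums of 95.1 and 89.3 CPM. *S100a8*, *S100a9*, *Ltf* and *Ngp* met the study's criteria, and *S100a9*, the most abundant of them, stood at 8.59 ± 4.56 and 21.2 ± 8.87 CPM. Under the replicate block these 4 genes passed in edgeR, with log2 fold changes of 1.31, 1.35, 1.09 and 1.37 and adjusted p = 0.00146, 7.84e-05, 0.0194 and 0.00264 in the order named.

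Plasmacytoid dendritic cells also express some B-lineage genes. Their 9 markers summed to 103 to 121 CPM in WT and 106 to 138 CPM in *Drp1* KO libraries, nearly all from *Tcf4* (104 ± 9.98 against 114 ± 15.2 CPM), and *Klk1* had 0 counts throughout. Of 7 tested none passed in edgeR, against 1 both at an unadjusted p under 0.05 and with DESeq2, and the median log2 fold change was 0.21. *Cox6a2* met the study's criteria (0.628 ± 0.134 against 1.73 ± 0.566 CPM, log2 fold change 1.45 ± 0.367, edgeR adjusted p = 0.0654) and passed under the replicate block (edgeR adjusted p = 0.0078). T cell markers summed to 316 to 333 CPM in WT and 131 to 256 CPM in *Drp1* KO libraries, nearly all from *Cd4* (312 ± 7.72 against 167 ± 67.8 CPM), which was lower with the replicate block (edgeR adjusted p = 0.00228) and without *Drp1* KO library 2 (edgeR adjusted p = 0.0028). Of 12 tested of 16 none passed by adjusted p (edgeR), against 1 both at an unadjusted p under 0.05 and with DESeq2, and the median log2 fold change was -0.06. The receptor constant regions *Trac*, *Trbc1* and *Trbc2* of this list had 3, 5 and 1 counts in WT and 0, 0 and 1 in *Drp1* KO libraries together. The sum is thus not a measure of T cells. NK cell markers summed to 1.08 to 1.29 and 0.817 to 1.53 CPM (3 of 8 tested, median -0.18, *Ncr1* and *Gzma* at 0 counts), stromal markers to 3.0 to 4.05 and 2.38 to 3.09 CPM (9 of 10 tested, median -0.35), and progenitor markers to 4.79 to 8.66 and 6.9 to 8.16 CPM (5 of 6 tested, median 0.14). None of these 3 lists had a gene that passed by adjusted p in edgeR, by DESeq2 or at an unadjusted p under 0.05.

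**Figure D5:**
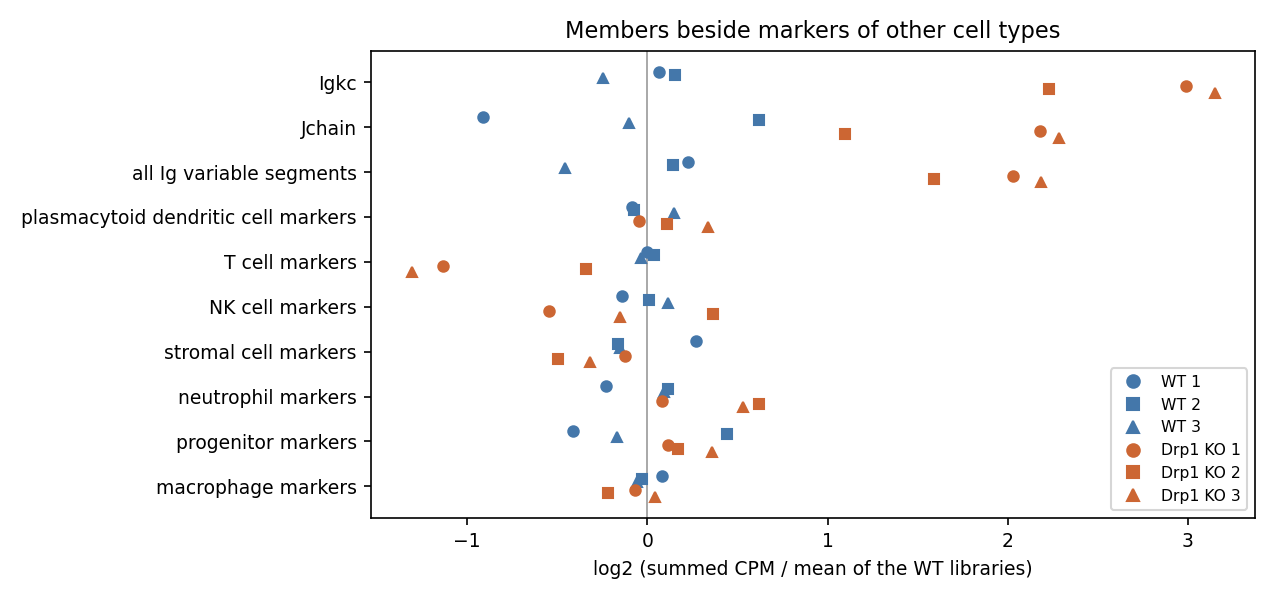
Log2 of each library's level over the mean of the WT libraries, for *Igkc*, *Jchain*, all immunoglobulin variable segments and the summed CPM of marker lists. The first 3 rows put every *Drp1* KO library (orange) to the right of every WT library (blue). *Csf3r* is the largest part of the neutrophil sum, and the 4 genes of that list that met the study's criteria are given in the text.

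The genes whose log2 CPM ran most like that of each member over the 6 libraries, among 12247 others, are given as a description. For *Igkc* these were *Gm12070*, *Ell2* and *Pdik1l* (Pearson r 0.998, 0.993 and 0.993), and for *Jchain* they were *Arhgap29*, *Tbc1d23* and *Acap1* (0.998, 0.986 and 0.983). For *Ighm* they were *Spats1*, *Tektip1* and *Fbxl9* (0.99, 0.99 and 0.974), and for *Cd79b* they were *Slc1a4*, *Mms19* and *Alkbh1* (0.997, 0.997 and 0.995). No name occurred for more than 1 member. All points share the same 6 libraries and the 2 groups.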

How the data were processed

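RNA-seq of 6 BMDM libraries was analysed at the gene level. The authors quantified reads against Ensembl cDNA of GRCm39 with kallisto (0.46.1 in the submitters' processing notes) and deposited, per transcript, estimated counts that need not be whole and are not scaled between libraries, and TPM values, which sum to 1000000 per library. The labels name a stranded mRNA kit. Transcripts were matched to the GENCODE annotation (116159 of 116873). The counts of a gene's transcripts were summed and rounded to whole numbers, and 0.542% to 0.575% of each library's counts had no match and were left out.

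*Drp1* KO was compared with WT in edgeR 4.0.16 (R 4.3.3; TMM, genes with at least 10 counts in total, quasi-likelihood test, no covariate, Benjamini-Hochberg adjustment over 18506 genes, threshold 0.05). Of these, 621 passed (3.36%), 424 higher and 197 lower in *Drp1* KO. The SE is the log2 fold change over the square root of F. Alternatives were DESeq2 1.42.0, other scalings and filters, length-scaled counts, the replicate number as a block, and each library left out. Same-numbered WT and *Drp1* KO libraries deviated together (r = 0.51, 0.204 and 0.298 over 12248 genes), so the numbers were taken to pair them, a reading from the data and not the labels. WT library 2 correlated more with *Drp1* KO library 3 (r = 0.326) than with library 2.

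The members and lists were chosen with earlier results of these data known. Named were the members and *Dnm1l*, and per list up to 5 genes that passed by smallest p, up to 3 meeting only the study's criteria and up to 3 with the highest mean CPM. The 3 variable segments with the most counts and the 3 genes most like each member with at least 1 CPM were named too, and other genes where said. Amino acid sequences and promoters were not used here, and 2 genes of the lists are not reported here and are left out of the list counts and medians, not of the fit.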

Additional observations from a re-analysis of the deposited data

How the results depend on the processing

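Depth limits *Cd79a*, *Pax5*, *Ly6d* and single variable segments, which rest on a few reads. The calls over all genes, 621 as reported, came to 1155 with DESeq2, 1065 with no filter beyond 1 count and 2212 with the replicate block, and to 181 to 904 with 1 library left out, so the number of calls depends on which libraries are used. The signed log2 fold changes of the members ranged, over all alternatives, from 2.65 to 3.08 for *Igkc*, 1.63 to 2.34 for *Jchain* and 0.38 to 0.81 for *Cd79b*. With 1 library left out they ranged from -0.20 to 0.65 for *Ighm*, which reversed without *Drp1* KO library 3 (-0.20), from 0.34 to 1.31 for *Cd79a*, and from -0.23 to 0.15 for *Ebf1*, which reversed when library 3 of WT (0.06) or library 1 of *Drp1* KO (0.15) was left out. The cause was not tested.

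With the replicate block, which pairs libraries of the same number, the calls were 2 for the constant regions, 1 for B cell receptor signalling, 2 for the transcription factors, 2 for the variable segments and 10 for markers of other cells, and the block left the counts for the surface receptors (3), plasma cell genes (0) and V(D)J genes (0) as reported. DESeq2 gave 1, 1, 1, 0 and 7 for the same 5 lists in that order. With no filter beyond 1 count the constant regions gave 2, the transcription factors 1, plasma cell genes 1, variable segments 3 and other markers 8. With edgeR's filterByExpr the variable segments gave 0, with 1 segment left to test. With 1 library left out the ranges were 0 to 1 for the constant regions, 0 to 1 for signalling, 0 to 1 for the transcription factors, 0 to 1 for plasma cell genes, 0 to 2 for the variable segments, 2 to 3 for surface receptors and 1 to 5 for other markers. *Fcrl5* and *Cd72* passed under all 13 alternatives.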
